A study of Pichia kudriavzevii with 6 samples.

Results

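The yeast Pichia kudriavzevii was compared in medium with succinic acid but no glucose and in medium with both, to see which transcripts depend on glucose while succinic acid is present. Of the 6 libraries in the series, the 4 compared were chosen by medium: 2 from cells in 2% succinic acid alone (SoleS) and 2 from cells in 2% glucose plus 2% succinic acid (GS). All cells, including those of the remaining 2 libraries in 2% glucose alone (SoleG), were of strain CY902, an acid-tolerant yeast, with URA3 deleted. URA3 encodes orotidine phosphate decarboxylase of uracil synthesis, a common selection marker, so every group carried that deletion and none was wild type. Cells came from a 24 h preculture in Synthetic Dextrose, a glucose medium, were washed, and spent 3 h in the test medium at pH 5.0. SoleS and GS therefore differed in glucose and also in the total amount of carbon source, and these cannot be told apart. No medium lacked both carbon sources.

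Yeasts take up glucose readily, and in many species glucose lowers the transcription of genes for the use of other carbon sources, a regulation known as glucose repression. Succinic acid is an intermediate of the tricarboxylic acid cycle. A cell given only such an acid has to import it through a carboxylate transporter, such as Jen2 of Kluyveromyces lactis, and to make hexoses from it by gluconeogenesis. The series was designed to identify transporters of this kind. Its files list genes by IDs such as PK3770 that are not paired with gene names, and 0 of the 5464 IDs matched the reference gene table. No gene of these pathways could therefore be looked up here, URA3 was not checked, and genes are described by ID or coding length, level and response. Near-identical copies could not be recognised, so the counts of any gene that has one are uncertain.

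The count totals were 6744749 and 6269038 in GS, 6959188 and 6024768 in SoleS, and 6657238 and 6648094 in SoleG. Levels are given in CPM, in which each count is divided by its library total after correction of that total for composition by TMM factors. Among genes with at least 10 CPM, the median size of the log2 difference between replicates was 0.09 in GS and 0.10 in SoleS, and 1 of 4727 genes in GS and 0 of 4910 in SoleS differed 2-fold or more. The labels do not say whether replicates were separate cultures, so p-values measure the spread between these libraries, which may be technical. Counts are shares of a library, so a change in the total RNA of a cell could not be seen. In such bulk RNA, fewer cells with a transcript and less of it per cell cannot be told apart.

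Most of the measured transcriptome differed between the 2 media, and mostly by less than 2-fold. Of 5280 genes tested, 4191 (79.4%) had a Benjamini-Hochberg adjusted p below 0.05 in edgeR's quasi-likelihood test and are called genes below. Higher levels in SoleS were called for 2110 genes (40.0%) and lower levels for 2081 (39.4%). The replicates of the media did not overlap for 4689 genes (88.8%): both SoleS libraries lay above both GS libraries for 2355 (44.6%) and below both for 2334 (44.2%). The median size of the log2 fold change was 0.72 over all tested genes, against 0.09 and 0.10 between replicates for genes with at least 10 CPM. Among called genes, which were selected for large differences, it was 0.92, and 2295 of them (54.8%) differed less than 2-fold. With the sign kept, the median log2 fold change over all tested genes was -0.00085. A stricter test, which asked whether a difference exceeded 1.5-fold (edgeR glmTreat, adjusted p below 0.05), was passed by 1227 genes in the upward and 1232 in the downward direction.

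**Figure D1:**
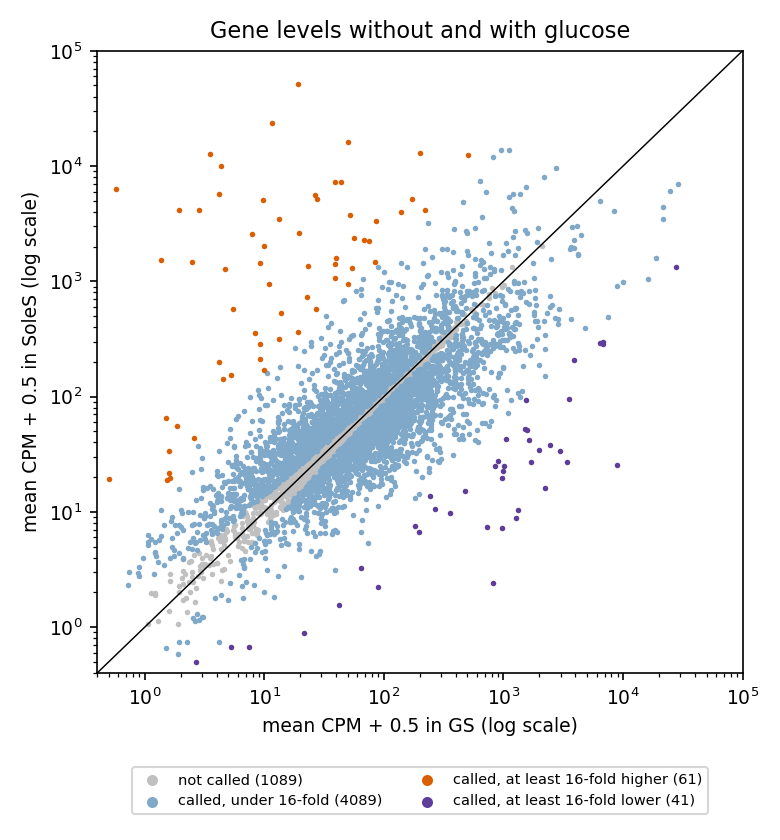
Mean CPM of each tested gene in GS (x axis) and SoleS (y axis), both with 0.5 added and on log scales, with 1 point per gene, n = 2 libraries per medium, and the line of equal levels. The 61 called genes whose SoleS level is raised by 16-fold or more reach up to 51355 CPM, while the 41 lowered by 16-fold or more lie below the line, over a wide span of GS levels.

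With TMM scaling the 2 directions were near equal in number among small differences, and higher genes outnumbered lower ones among very large differences. Called genes at least 2-fold apart numbered 970 higher and 926 lower, and at 4-fold there were 295 and 276. The near balance depended on the scaling: upper-quartile factors gave 1147 and 790 at 2-fold, 340 and 240 at 4-fold, and 1458 and 1049 past 1.5-fold. At 16-fold 61 were higher (1.16% of those tested) and 41 lower (0.777%), at 128-fold 23 and 7, and at 256-fold 16 and 2. Without SoleS replicate 2, 4 genes were at least 256-fold lower. The 61 genes had a median of 11.0 CPM in GS (quartiles 3.71 and 39.2) and 1473 CPM in SoleS. The 41 genes had a median of 1018 CPM in GS (quartiles 268 and 2220) and 22.3 CPM in SoleS.

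**Figure D2:**
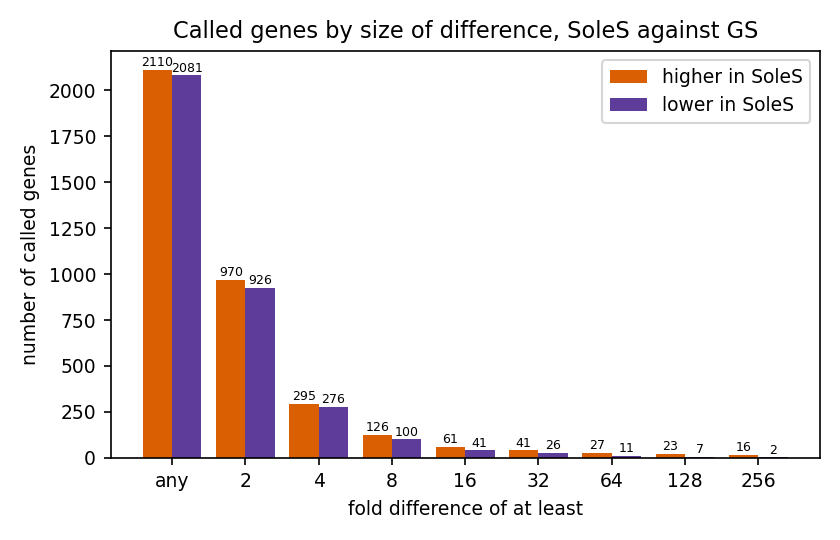
Number of called genes with TMM scaling (y axis) that differed between SoleS and GS by at least the fold on the x axis, higher or lower in SoleS. The bars are near equal up to 4-fold (295 and 276) and unequal at 256-fold (16 and 2).

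The strongly higher genes were seldom silent in GS. Of the 61, 49 had at least 10 counts in each GS library and 1 had no count in both. Across all 5464 genes, 132 had no count in either GS library, which allows up to 0.461 CPM in replicate 1 and 0.492 CPM in replicate 2 by counting error alone. Of these 132, 121 had no count in all 6 libraries, and 1 reached 10 CPM in both SoleS libraries, at a mean of 18.6 CPM. At 3 or fewer counts in each GS library there were 168 genes, of which 14 reached 1 CPM and 2 reached 10 CPM in both SoleS libraries. The higher of those 2 stood at a mean of 6330 CPM in SoleS. In the other direction, 128 genes had no count in both SoleS libraries, and 0 of them reached 10 CPM in both GS libraries.

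The media shared few of their most abundant transcripts. Of the 100 genes with the highest mean CPM in GS, 28 were among the 100 highest in SoleS. Replicate libraries shared 95 of their 100 in GS and 97 in SoleS. Per kilobase of coding length, which makes levels of different genes comparable, 25 of 100 were shared between the media. Of the 20 highest, 2 were shared by CPM and 6 per kilobase, and of the 500 highest, 264 by CPM and 319 per kilobase. The 100 genes highest in GS held 40.0% ± 0.2 of the GS counts and 12.6% ± 0.05 of the SoleS counts (SD, n = 2). In SoleG, whose libraries did not choose them, they held 36.7% ± 0.8. Of these 100 genes, 90 were called lower and 9 higher in SoleS, against 39.4% and 40.0% of all tested genes. This is a description, since GS levels chose the 100 genes. Their median rank in SoleS was 242, and 18 fell outside the 1000 highest. The 100 genes highest in SoleS held 45.3% ± 0.1 of the SoleS counts, 21.1% ± 0.2 in GS and 19.9% ± 0.3 in SoleG, and 33 of them ranked outside the 1000 highest in GS.

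The first 50% of the counts were concentrated in fewer genes without glucose. In SoleS 142 and 144 genes accounted for 50% of the counts of replicates 1 and 2, against 201 and 204 in GS and 261 and 246 in SoleG. The groups did not overlap. The 10 highest genes of a library held a similar share in both media, 17.1% and 17.4% in SoleS and 18.5% and 18.0% in GS. The 100 highest held 45.4% and 45.3% in SoleS and 40.2% and 39.9% in GS. The higher concentration in SoleS than in GS thus arose between the 10th and the 100th gene. It was absent at 90% of the counts, which took 2154 and 2170 genes in SoleS and 2131 and 2153 in GS. In SoleG 2313 and 2261 genes were needed. An exact test on 2 against 2 libraries cannot give a two-sided p under 0.333, so none is given for such single values.

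**Figure D3:**
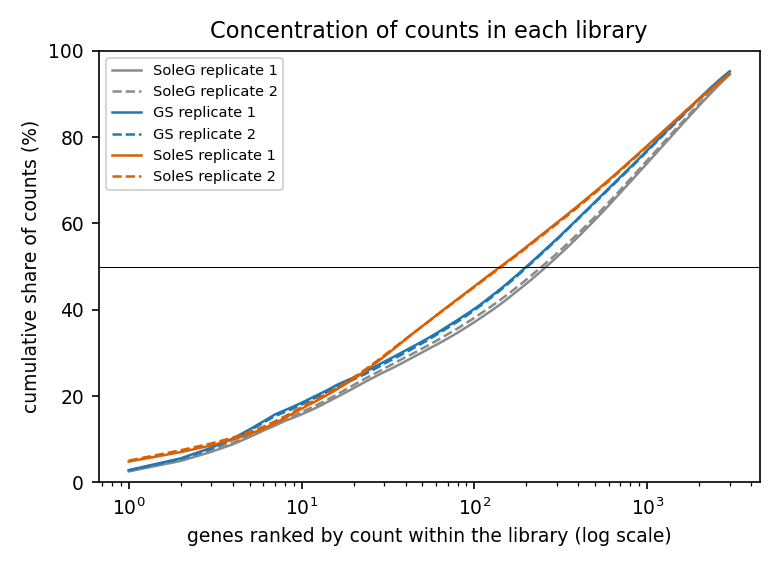
Cumulative share of counts (y axis, %) against genes ranked by count within each library (x axis, log scale), with 1 line per library and solid lines for replicate 1. The SoleS lines reach 50% at 142 and 144 genes, before those of GS (201 and 204) and SoleG (261 and 246).

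About 50% of all counts were assigned to other genes without glucose. The share that would have to move to turn a GS library into a SoleS library, summed over genes, was 50.4% and 50.0% for GS replicate 1 against SoleS replicates 1 and 2, and 50.4% and 50.0% for GS replicate 2. It was 2.37% between the GS replicates and 3.03% between the SoleS replicates. From GS to SoleG it was 11.0% to 12.2%. Of the 2671 genes that gained and the 2670 that lost share, few carried 50% of this change. The gain in SoleS amounted to 50.1 percentage points, of which 25 genes held at least 50%, and 44 genes held at least 50% of the equal loss.

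Genes with very large differences held much of the gain. The 61 genes at least 16-fold higher took 23.9% and 24.1% of the counts in SoleS replicates 1 and 2 and 0.228% and 0.229% in the GS replicates. In SoleG they took 0.361% and 0.364%, so both glucose media were low. Of these, the 23 raised by 128-fold or more held 17.5% ± 0.2 of SoleS counts and 0.0293% ± 0.0008 of GS counts (SD, n = 2). Of the 61 genes, 38 exceeded 1000 CPM in SoleS and 35 were among its 100 highest, while 0 were among the 100 highest of GS. The 2 SoleS replicates differed by at most 1.32-fold for any of the 61. For all 61, both SoleG libraries lay below both SoleS libraries, a description, since SoleS levels helped to choose them.

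The 41 genes at least 16-fold lower took 9.48% and 9.55% of the counts in the GS replicates and 0.305% and 0.310% in the SoleS replicates. In SoleG their share was 9.20% and 9.71%, overlapping the range of GS. Of the 41, 21 exceeded 1000 CPM in GS and 19 were among its 100 highest, against 0 among the 100 highest of SoleS. Both SoleG libraries lay above both SoleS libraries for 40 of them. These groups were chosen on the SoleS and GS libraries, so their values there describe the difference and do not test it. The same holds for SoleG against SoleS, since the same SoleS libraries helped to choose the genes. How many of all tested genes had SoleG and SoleS libraries that did not overlap was not computed, so the counts for both groups cannot be judged against it. Between GS and SoleS, the libraries did not overlap for 88.8% of all tested genes.

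**Figure D4:**
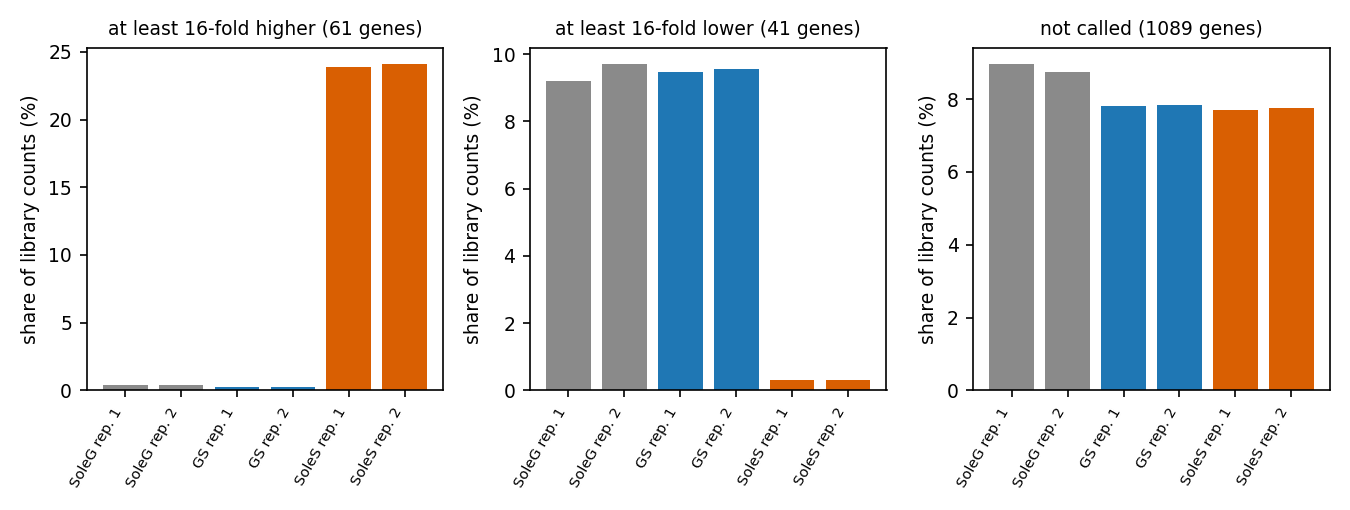
Share of the counts of each library (y axis, %, with a separate scale in each panel) held by 3 sets of genes: called and raised by 16-fold or more in SoleS against GS, called and lowered by 16-fold or more, and not called, with 1 bar per library. The first set stands at 23.9% and 24.1% in SoleS and under 0.4% in the 4 libraries with glucose, and the second falls to 0.305% and 0.310% in SoleS.

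Genes lowered by 2-fold to under 16-fold held most of the counts that were lost in SoleS. The 235 genes lower by at least 4-fold and under 16-fold held 27.0% ± 0.2 of the counts in GS and 4.36% ± 0.003 in SoleS. The 650 genes lower by at least 2-fold and under 4-fold went from 18.5% ± 0.2 to 6.99% ± 0.19. In the upward direction the 234 genes of 4-fold to under 16-fold went from 2.07% ± 0.02 to 15.1% ± 0.3, and the 675 genes of 2-fold to under 4-fold from 4.77% ± 0.0003 to 12.8% ± 0.1 (SD, n = 2).

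By the change in mean CPM, PK3770 and PK4352 gained most and PK0166 and PK1425 lost most. PK3770, with a coding length of 1134 bases, stood at 20.6 and 16.6 CPM in the GS replicates and at 50583 and 52127 CPM in the SoleS replicates. The SoleG replicates lay at 46.8 and 48.8 CPM, above GS and far below SoleS. The log2 fold change from GS to SoleS was 11.43 ± 0.13 (SE), a 2754-fold difference (edgeR adjusted p = 2.29e-26). It ranked 4287 by CPM in GS and 1 in SoleS, where it held 4.95% ± 0.16 of all counts (SD, n = 2).

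PK4352 has a coding length of only 204 bases. Its level was 8.60 and 13.5 CPM in the GS replicates and 22872 and 24615 CPM in the SoleS replicates, with no overlap, and 30.3 and 31.7 CPM in SoleG. The log2 fold change was 11.08 ± 0.14 (SE; edgeR adjusted p = 1.30e-25), on 138 counts in GS and 296364 in SoleS. Per kilobase of coding length PK4352 ranked 1 in SoleS, at a length-normalised level of 112247 ± 7035 FPKM, the counts divided by coding length and library total. PK3770 was next at 43668 ± 1401 FPKM (SD, n = 2) and ranked 2.

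PK0166, of 1728 bases, fell from 28373 and 27409 CPM in the GS replicates to 1358 and 1289 CPM in the SoleS replicates. It stood at 23631 and 25173 CPM in SoleG, below GS and far above SoleS. The log2 fold change was -4.40 ± 0.09 (SE), a 21.1-fold decrease (edgeR adjusted p = 1.67e-22), and its rank by CPM went from 2 to 104. PK1425, of 1008 bases, was the most abundant gene of GS at 29503 and 28586 CPM, and stood at 7137 and 6964 CPM in SoleS. Its level in SoleG was 22285 and 23690 CPM. It fell 4.12-fold (log2 fold change -2.04 ± 0.08 SE; edgeR adjusted p = 7.20e-17) and still ranked 16 in SoleS.

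**Figure D5:**
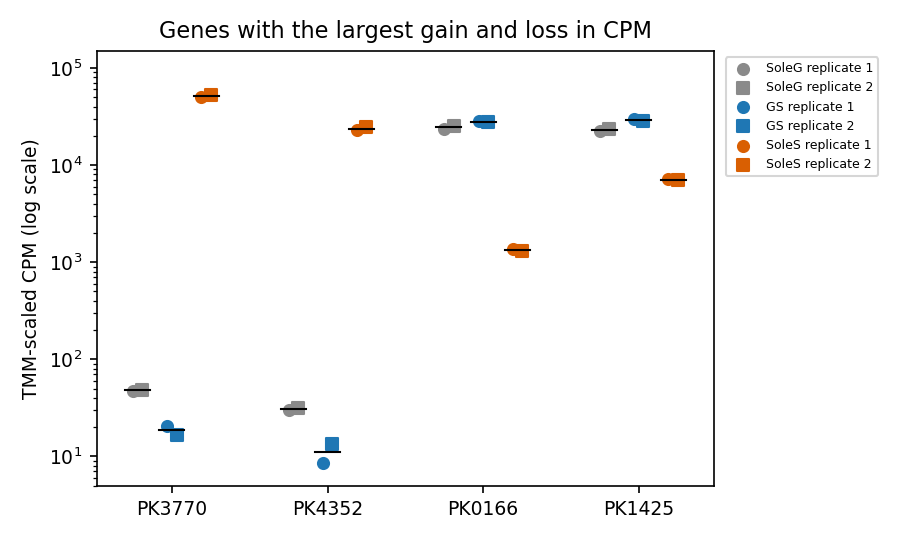
TMM-scaled CPM (y axis, log scale) of PK3770, PK4352, PK0166 and PK1425 in each library, with circles for replicate 1, squares for replicate 2 and a line at the mean of each medium. PK3770 and PK4352 stand at 8.60 to 48.8 CPM in the 4 libraries with glucose and at 22872 CPM or more in SoleS, while PK0166 and PK1425 stand at 22285 CPM or more with glucose and at 1289 to 7137 CPM in SoleS.

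The next genes in order of change in CPM differed in their starting levels. Among the 10 largest gains, the mean GS level ranged from 3.04 to 1105 CPM and the fold from 12.4 to 4226. A gene of 1683 bases measured 3.04 ± 1.04 CPM with glucose (GS) and 12827 ± 48 CPM without (SoleS), whereas a gene of 417 bases went from 1105 ± 30 to 13685 ± 673 CPM (SD, n = 2). A gene of 3237 bases, the longest of the 10, went from 952 ± 77 to 13663 ± 278 CPM. In SoleG that last gene stood at 354 ± 47 CPM, below GS, while a gene of 585 bases stood at 565 ± 109 CPM in SoleG, 198 ± 14 CPM in GS and 12882 ± 334 CPM in SoleS. In GS these last genes thus lay on opposite sides of their SoleG levels, and both were far below SoleS. The 10 largest losses started between 8883 and 29045 CPM in GS. Their folds ran from 4.06 to 362, and 9 of the 10 stayed at 908 CPM or more in SoleS. The exception, a gene of 1641 bases, went from 8931 ± 56 to 24.8 ± 3.4 CPM.

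Genes that hardly differed were identified by the interval of the fold change, not by a missed threshold. The 95% interval of the log2 fold change lay within 1.5-fold in both directions for 1277 genes (24.2% of those tested), of which 460 were called and 817 were not. They held 16.1% ± 0.01 of the counts in GS and 15.7% ± 0.05 in SoleS (SD, n = 2). Of the 1089 genes not called, 272 had wider intervals and could have differed by more than 1.5-fold. Their median level in GS was 9.27 CPM, against 55.5 CPM for the 817 bounded ones.

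The balance of directions varied with the level of the gene. Of the 1056 genes in the lowest of 5 equal groups by mean CPM over SoleS and GS (0.565 to 23.6 CPM), 487 were called higher and 228 lower in SoleS. In the highest group, also of 1056 genes and from 173.6 CPM upwards, 421 were higher and 538 lower. Over all tested genes, 40.0% were called higher and 39.4% lower, 79.4% together. The share of called genes rose from 67.7% in the lowest to 90.8% in the highest group. Precision also rises with counts, and its part in this share was not tested. The median size of the log2 fold change was largest at both ends, 0.81 in the lowest and 1.06 in the highest group, against 0.60 in the middle one. With groups by mean log2 CPM over SoleS and GS, the ends were near equal, 0.88 and 0.90, against 0.58. Over all 6 libraries they were 0.90 and 0.93, against 0.58. The compared libraries formed the groups, so these sizes are descriptions. The part of counting noise in the lowest group was not tested.

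Of 5 near-equal groups by coding length, only the longest had more genes called lower than higher in SoleS. Over all tested genes, 40.0% were called higher and 39.4% lower. In the 1056 longest genes, of 2109 bases or more, 321 were called higher and 541 lower in SoleS, and the log2 fold change had a median of -0.25. In the 1058 shortest, of 63 to 651 bases, 455 were higher and 352 lower, with a median of 0.17. From shorter to longer, the groups between had 467 and 373, 424 and 397, and 443 and 418, with medians of 0.12, 0.01 and 0.02. The median GS level was 41.0 CPM in the shortest and 73.8 CPM in the longest genes, and the part of level was not tested. The shortest genes held 16.3% ± 0.04 of the counts in GS and 21.0% ± 0.3 in SoleS (SD, n = 2), and 15.9% ± 0.6 in SoleG. The longest held 15.4% ± 0.2 in GS and 14.6% ± 0.1 in SoleS. Shares did not change in order of length. Genes of 654 to 1047 bases went from 19.2% in GS to 16.7% in SoleS, and those of 1050 to 1467 from 26.8% to 23.9%. Genes of 1470 to 2106 bases went from 22.3% to 23.8%. PK4352, among the shortest, alone held 2.29% in SoleS and 0.00107% in GS. Genes of 471, 585 and 417 bases were also among the 10 largest gains. Their mean levels were 50.0, 198 and 1105 CPM in GS and 16115, 12882 and 13685 CPM in SoleS. The shortest gene among the 10 largest losses had 750 bases. The share of the shortest genes without these few was not computed, so its rise cannot be ascribed to short genes in general. RNA quality was not given in the sources used here, and its part in these differences was not tested.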

How the data were processed

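RNA of 6 libraries was sequenced, 2 per medium, from cells shaken at 250 rpm and 30 °C in 50 mL, per the labels' protocols. The submitters' processing notes name Bowtie2 2.2.5. Which tool counted the reads, whether it used strand, what it did with multiply mapped reads, and which build and annotation it used is not given in the sources used here, so overlapping or similar genes may share counts. The authors deposited 1 file per library with whole-number counts and the coding length of 5464 genes. All coding lengths are multiples of 3. The deposited FPKM values were not used, and levels per kilobase (FPKM in the text) were computed from counts, coding lengths and each library's own total. Blank lines at the end of 2 files were dropped.

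Genes with low counts were removed with filterByExpr of edgeR 4.0.16 in R 4.3.3. This left 5280 genes and removed 184, with 0.00351% of the counts. TMM factors ran from 0.957 to 1.08. The 3 media were fitted in 1 model to all 6 libraries (estimateDisp, glmQLFit, glmQLFTest, 3 residual degrees of freedom), and p-values were adjusted over all genes tested. The standard error is the size of the log2 fold change divided by the square root of F, and 95% intervals use it. The scripts were tested on simulated data. Replicate libraries were distinct. A chi-square per gene between replicates, a squared measure, averages 1 under sampling noise alone. It was 2.84 in GS, 4.00 in SoleS and 5.72 in SoleG. The 95% intervals and p-values rest on the spread between these libraries. That spread is estimated partly from all genes together, so both use more than the 3 residual degrees of freedom. Limits on counts of 0 (3 counts) rest on counting error only.

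The comparison, groups and rules were chosen with earlier results of these data known. The IDs carry no names, so only 4 are printed: the 2 genes with the largest rise and the 2 with the largest fall in mean CPM, among called genes whose libraries do not overlap. Other genes are given by coding length, and those singled out among the 10 largest changes were chosen after their values were seen. The alternatives were other scaling factors, DESeq2 1.42.0, limma-voom (limma 3.58.1), other filters, a fit to the 4 libraries, the replicate number as a block and each library left out.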

Additional observations from a re-analysis of the deposited data

How the results depend on the processing

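The counts of all called genes and of those at least 2-, 4-, 16-, 128- or 256-fold apart were run under 15 other settings, and those of the 1.5-fold tests and bounded genes under 13. The runs at 4-, 128- and 256-fold were added after the data were seen. Counts stayed within 1.5 times their value, except that the 2 genes at least 256-fold lower were 2 to 4 with each library left out, with 4 without SoleS replicate 2. Counts by coding length were not run under other settings. With each library left out in turn, called genes numbered 1913 to 2127 higher and 1952 to 2104 lower, at least 16-fold 61 to 70 higher and 41 to 44 lower, and 1045 to 1307 were bounded within 1.5-fold. A medium with 1 library left is assumed to vary like the others. Without GS replicate 1, 3814 of the 4191 calls (91.0%) remained in the same direction, the lowest share of any setting run, and 0 calls turned. Upper-quartile factors moved the median of all genes to a log2 fold change of 0.14 and gave 2362 higher and 1841 lower genes, with medians of 0.31 in the shortest and -0.12 in the longest genes. Such a shift moves all genes alike and is no test of the differences with length. DESeq2 gave 1951 and 1948. The 16-fold groups chosen with the 4 compared libraries, or with total counts, also had 61 and 41 genes and the same shares of counts. These runs therefore add no separate check of the shares, which were not run under the other settings. PK4352 had the widest range of the 4 named genes, a log2 fold change of 10.78 without GS replicate 1 and 11.42 as the highest value with a library left out. The 4 genes kept their direction, with adjusted p of at most 3.12e-13 in all 15 settings. The replicate block gave 2091 higher and 2071 lower genes and changed no call of the named genes. Whether equal replicate numbers mark paired libraries is not given in the sources used here. Differences between replicates 1 and 2 correlated at 0.05 between GS and SoleS, and at -0.04 and -0.09 between SoleG and GS or SoleS. These values cannot decide it, since counting noise lowers such correlations. Depth limits weakly expressed genes: the uncalled genes with intervals wider than 1.5-fold had a median of 9.27 CPM in GS.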

Other observations

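Genes with neighbouring ID numbers had slightly similar responses to the absence of glucose. Whether the numbers follow the order of genes on chromosomes is not given in the sources used here. The log2 fold changes of SoleS against GS of genes with consecutive numbers had a Pearson correlation of 0.15 and a Spearman correlation of 0.14 over 5108 pairs. At a distance of 2 numbers the Pearson correlation was 0.05, at 3 it was -0.002 and at 10 it was -0.005. All pairs share the same 4 libraries and genes are not independent, so these are descriptions. The share of consecutive pairs with the same sign was 54.6%, against 49.9% at a distance of 10. Among the 295 called genes raised by 4-fold or more, 81 stood in 38 runs of 2 or more consecutive numbers, with at most 3 in a run. Among the 276 lowered by 4-fold or more, 50 stood in 22 runs, with at most 4. How many runs a random order of IDs would give was not computed, so the run counts are descriptions only. Reads shared between overlapping genes would be counted for both under some counting settings. Their part in the similarity of neighbouring IDs was not tested.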
